A study of Mus musculus with 4 samples.

Results

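The TREM genes (triggering receptors expressed on myeloid cells) and the 2 DAP adaptor genes were followed across the leukocytes of the mouse left ventricle. The 7 members, of 31053 genes in the matrices, were the rows named Trem1, Trem2, Trem3, Treml2, Treml4, Tyrobp and Hcst. The rows were taken by name, but the members were chosen with earlier results of these data known. The study compared C57Bl6J mice given DOCA-salt (deoxycorticosterone acetate with a high salt intake, a model of hypertension) with sham mice, 4 mice in each group, and its title names Trem2. Dose, duration, age and sex were not given in the sources used here. Cells of the digested, perfused ventricle were enriched on CD45 beads, tagged by mouse with hashtag antibodies, pooled within a group, sorted as live single CD45+ cells and sequenced from the 5′ end with unique molecular identifiers (UMIs). All DOCA-salt mice were in 1 library and all sham mice in the other, so library and group cannot be told apart.

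TREM receptors are single-pass membrane proteins with an immunoglobulin-like outer domain. Most have no signalling motif of their own and pair through a charged residue in the membrane with DAP12, the product of Tyrobp, whose tyrosine motif recruits Syk-family kinases. DAP10, the product of Hcst, carries a different motif that recruits phosphoinositide 3-kinase and Grb2, and it is best known as the partner of the activating receptor NKG2D on NK and T cells. Trem2 binds lipids and lipoproteins and is known from lipid-handling macrophages of many tissues, while Trem1 is known as an amplifier of inflammatory responses in neutrophils and monocytes.

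The 5 receptor genes lie within 121.4 kb of chromosome 17 (GRCm38, GENCODE M21), all on the plus strand, in the order Trem1 (chr17:48232768-48246924), Trem3 (chr17:48247777-48258841), Treml4 (chr17:48264295-48275360), Treml2 (chr17:48299498-48312533) and Trem2 (chr17:48346401-48354147). Tyrobp (chr7:30413760-30417585, plus strand) and Hcst (chr7:30417712-30419854, minus strand) face each other on chromosome 7, with 126 bases between their 3′ ends. The RefSeq promoter table (GRCm38.p6) held 4 of the members, and their 250 bases before the transcription start are printed because Trem1, Trem2 and Treml4, of the same locus, had their highest levels in different leukocytes. Capitals mark AGGAAG, searched on both strands, so that the reverse match reads CTTCCT; these letters occur in the purine-rich sites of ETS-family factors, which include the myeloid factor PU.1. The 4 windows are chr17:48232489-48232738 (+), chr17:48346151-48346400 (+), chr17:48264045-48264294 (+) and chr7:30419855-30420104 (-).
Trem1: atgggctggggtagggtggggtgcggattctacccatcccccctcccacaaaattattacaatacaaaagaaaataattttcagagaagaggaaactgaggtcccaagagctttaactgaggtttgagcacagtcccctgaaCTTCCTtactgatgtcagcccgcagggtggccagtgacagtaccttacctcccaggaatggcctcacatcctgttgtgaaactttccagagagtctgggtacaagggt
Trem2: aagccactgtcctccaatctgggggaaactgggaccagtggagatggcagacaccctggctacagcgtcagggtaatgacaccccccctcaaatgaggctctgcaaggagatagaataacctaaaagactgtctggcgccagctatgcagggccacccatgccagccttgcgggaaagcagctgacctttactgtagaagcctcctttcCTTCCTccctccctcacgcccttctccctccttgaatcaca
Treml4: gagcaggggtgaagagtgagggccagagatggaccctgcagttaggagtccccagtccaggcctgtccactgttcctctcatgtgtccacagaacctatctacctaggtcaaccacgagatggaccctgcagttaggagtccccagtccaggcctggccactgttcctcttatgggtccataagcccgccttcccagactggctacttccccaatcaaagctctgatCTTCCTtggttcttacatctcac
Hcst: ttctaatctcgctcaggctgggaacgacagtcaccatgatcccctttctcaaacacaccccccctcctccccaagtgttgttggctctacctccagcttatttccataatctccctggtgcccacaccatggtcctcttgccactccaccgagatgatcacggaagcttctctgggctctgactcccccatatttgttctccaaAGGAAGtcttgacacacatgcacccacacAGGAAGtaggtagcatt
Trem1, Trem2 and Treml4 each had 1 match and Hcst had 2, while 29.5% of all 32851 promoter windows of that length had at least 1. A match describes letters in the window and was not tested as a binding site.

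After filtering, 6864 DOCA-salt and 4080 sham cells were used, with 764 to 2172 cells and 2708758 to 9048096 UMIs for a DOCA-salt mouse and 624 to 1281 cells and 1782050 to 4065978 UMIs for a sham mouse. The libraries shared 36 cell barcodes among the cells used. Clusters were named from marker genes, with the 7 members left out of both the clustering genes and the markers. The 8 named classes, with DOCA-salt and sham cells in that order, were neutrophil-like (155 and 15), classical monocyte-like (107 and 15), nonclassical monocyte-like (97 and 88), macrophage-like (701 and 297), dendritic cell (DC)-like (129 and 31), NK-like (1250 and 536), T-like (623 and 336) and B-like (2803 and 2127). Every marker of a class's own lists was detected in it in both groups, except Camp in sham neutrophil-like cells and the migratory DC markers Ccr7, Ccl22 and Cacnb3 in sham DC-like cells, which were at 0. Since classes were built from the RNA of these same cells, levels across classes are given as descriptions, in CPM (UMIs scaled to the total UMIs of the class in that mouse), over mice with at least 10 cells of the class.

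Among the 8 named classes, neutrophil-like cells were the leading class of 2 receptor genes, Trem1 and Trem3, and the other receptor genes led in a class each. The orders below are over these classes, and some unnamed clusters had levels between or above theirs. Trem1 was highest in neutrophil-like cells, at 426 ± 72.2 CPM (SD, n = 4 mice, all DOCA-salt, because no sham mouse had 10 such cells). Its next level among the named classes, in nonclassical monocyte-like cells, was 17.97 ± 12.2 CPM (SD, n = 8), and in macrophage-like, NK-like, T-like and B-like cells its mean was under 1 CPM. In every mouse with both classes the neutrophil-like value was the higher, and the ranges did not overlap. Of all Trem1 UMIs, 72.2% in DOCA-salt and 69.2% in sham mice lay in neutrophil-like cells. A small unnamed cluster led by Vcan and Fn1 had 49.2 ± 61.3 CPM in DOCA-salt and 29.9 ± 38.3 CPM in sham mice (SD, n = 4 each), from 6 and 3 UMIs.

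Trem3, a mouse receptor gene that pairs with DAP12, had its highest levels in 2 classes. It averaged 228 ± 57.0 CPM in neutrophil-like cells (SD, n = 4) and 143 ± 38.4 CPM in nonclassical monocyte-like cells (SD, n = 8), with overlapping ranges, and 22.5 ± 20.4 CPM in classical monocyte-like cells (SD, n = 4). In all 4 mice with both classes, which were DOCA-salt mice, the neutrophil-like value was above the nonclassical one, which averaged 158 ± 45.6 CPM in them. In macrophage-like, DC-like, NK-like, T-like and B-like cells its mean was under 1 CPM. Neutrophil-like cells held 38% of Trem3 UMIs in DOCA-salt and 10.3% in sham mice, and nonclassical monocyte-like cells held 42.0% and 77.6%. The unnamed cluster led by Vcan and Fn1 had 41.7 ± 46.4 CPM in DOCA-salt and 76.2 ± 127 CPM in sham mice (SD, n = 4 each), from 8 and 3 UMIs.

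Treml4, a receptor gene known from patrolling monocytes and some splenic macrophages and dendritic cells, led in 1 monocyte class. Nonclassical monocyte-like cells had 595 ± 101 CPM (SD, n = 8). The lowest of their mice, at 389 CPM, was above the highest mouse of the next named class, neutrophil-like cells, at 132 CPM. An unnamed cluster led by Vcan and Fn1, with mixed monocyte and macrophage markers, had 158 ± 102 CPM in DOCA-salt and 344 ± 273 CPM in sham mice (SD, n = 4 each). It reached 661 CPM in a sham mouse, with as few as 3 cells a mouse, and held 6.49% of DOCA-salt and 10.5% of sham Treml4 UMIs. A Treml4 UMI was found in 90.7% of 97 DOCA-salt and 81.8% of 88 sham nonclassical monocyte-like cells (95% Clopper-Pearson intervals 83.1 to 95.7% and 72.2 to 89.2%). DC-like cells, despite a median of 8955 UMIs a cell in DOCA-salt mice, had 2.25 ± 3.13 CPM (SD, n = 5). These intervals, like the others below, cover counting error only.

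Trem2 led in macrophage-like cells, at 275 ± 105 CPM (SD, n = 8), followed by classical monocyte-like cells at 85.3 ± 24.7 CPM (SD, n = 4, DOCA-salt) and nonclassical monocyte-like cells at 30.0 ± 26.9 CPM (SD, n = 8). Macrophage-like and classical monocyte-like ranges did not overlap, and the 2 monocyte classes did. Macrophage-like cells held 81.0% of Trem2 UMIs in DOCA-salt and 77.1% in sham mice. Of the unnamed clusters, that led by Vcan and Fn1 had 82.8 ± 44.1 CPM in DOCA-salt and 10.0 ± 20.1 CPM in sham mice. One led by Cbr2 and Igf1 had 72.0 ± 47.4 and 24.4 ± 9.31 CPM (SD, n = 4 each). As a measure of background, in B-like cells a Trem2 UMI was seen in 1.96% of DOCA-salt and 0.611% of sham cells, at median depths of 3017 and 2718 UMIs. The corresponding shares in macrophage-like cells were 58.6% and 33.3%, at 3812 and 2918 UMIs.

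Trem2 was set against C1qa, C1qb and C1qc, the complement genes that mark macrophages, to see where its UMIs kept macrophage proportions. Macrophage-like cells had 1.98 Trem2 UMIs per 100 C1q UMIs in DOCA-salt and 0.942 in sham mice, and B-like cells had 2.91 and 0.960. In classical monocyte-like cells the ratio was 65.2 in DOCA-salt mice, from 90 Trem2 and 138 C1q UMIs, and 83.3 in sham mice, from 5 and 6. Nonclassical monocyte-like cells had 15.97 in DOCA-salt and 12.96 in sham mice, from 19 and 7 Trem2 UMIs. The ratios of both monocyte classes were thus above those of macrophage-like cells, on UMIs summed over mice. Higher ratios also stood in an unnamed cluster led by Vcan and Fn1, at 11.1 in DOCA-salt and 4.55 in sham mice (12 and 1 Trem2 UMIs). Sham DC-like cells had 5.26, from 2 Trem2 UMIs. What these ratios reflect was not tested. NK-like cells, with 25 and 9 Trem2 UMIs, had 2.12 and 2.07.

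Treml2, a receptor gene known from lymphocytes as well as myeloid cells, was the member that led in B-like cells among the named classes, at 104 ± 10.7 CPM (SD, n = 8). Neutrophil-like cells followed at 57.7 ± 36.0 CPM (SD, n = 4), with a range that overlapped that of B-like cells, and T-like cells at 49.3 ± 10.9 CPM (SD, n = 8). A Treml2 UMI was found in 25.4% of DOCA-salt and 24.8% of sham B-like cells. NK-like cells had 7.91 ± 2.08 CPM (SD, n = 8), below every B-like and T-like value.

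The adaptors were broader. Tyrobp had 8420 ± 717 CPM in neutrophil-like cells (SD, n = 4), above every other class without overlap. Classical monocyte-like cells at 4573 ± 119 CPM (SD, n = 4), nonclassical monocyte-like cells at 4302 ± 358 CPM and NK-like cells at 3955 ± 161 CPM (SD, n = 8 each) overlapped with their neighbours in that order. Macrophage-like cells had 2548 ± 174 CPM (SD, n = 8), below all NK-like values, and overlapped with DC-like cells at 2033 ± 438 CPM (SD, n = 5). B-like and T-like cells stood far below, at 116 ± 14.5 and 95.7 ± 36.0 CPM (SD, n = 8 each), with overlapping ranges.

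Hcst had its highest levels in a different set of classes. NK-like cells had 742 ± 85.9 CPM (SD, n = 8), neutrophil-like cells 566 ± 117 CPM (SD, n = 4) and T-like cells 426 ± 53.1 CPM (SD, n = 8). NK-like values overlapped with neutrophil-like values, and these with T-like values, but the lowest T-like mouse, at 345 CPM, was above the highest nonclassical monocyte-like mouse, at 156 CPM. Macrophage-like cells had 62.7 ± 47.3 CPM (SD, n = 8), a level that overlapped with that of B-like cells, 69.1 ± 7.24 CPM (SD, n = 8). NK-like cells held the most Hcst UMIs, 43.9% in DOCA-salt and 46.9% in sham mice, and the most Tyrobp UMIs, 45.2% and 53.2%.

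**Figure D1:**
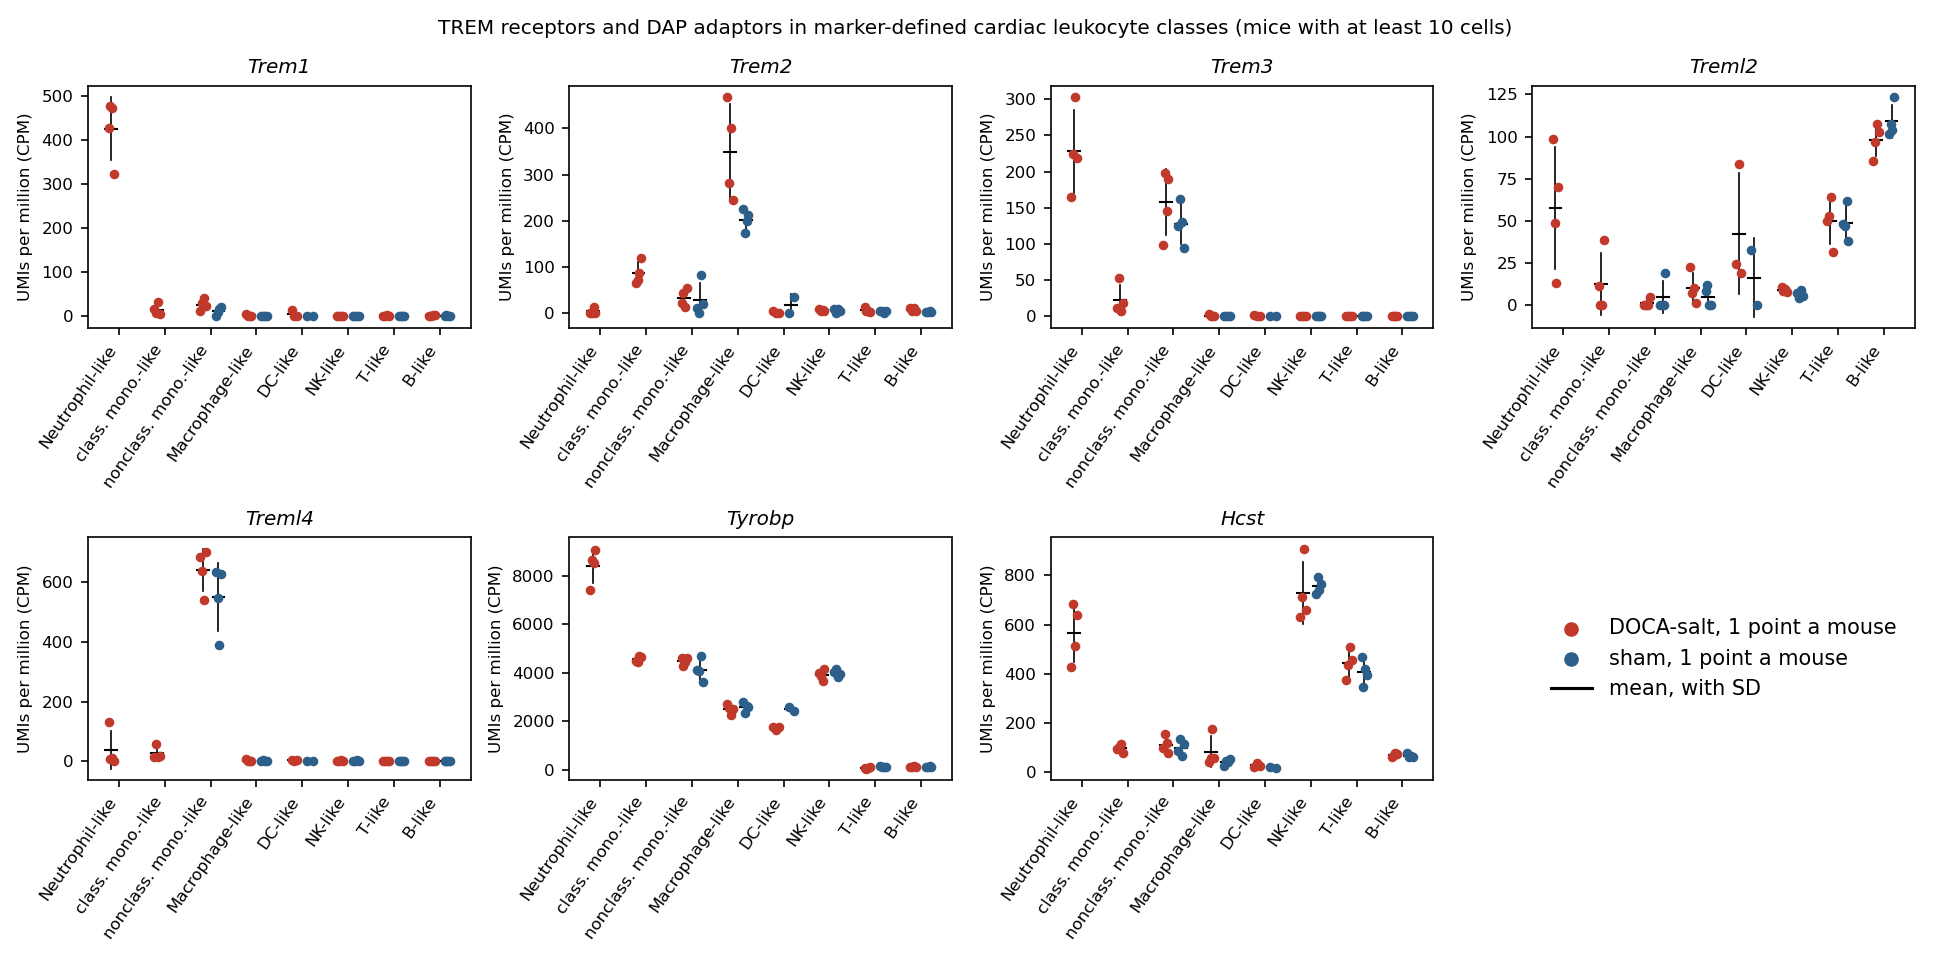
Levels of the 7 members in 8 leukocyte classes, in CPM, 1 point for each mouse with at least 10 cells of the class, DOCA-salt in red and sham in blue, with mean and SD. Trem1, Trem2, Treml4 and Treml2 each peak in 1 class, at 426, 275, 595 and 104 CPM, while Tyrobp is at 2033 CPM or more on average in 6 classes.

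Receptor and adaptor were then looked for in the same cells, after each cell was thinned to 1500 UMIs. Among DOCA-salt macrophage-like cells, Tyrobp was found in 213 of 219 cells with a Trem2 UMI (97.3%, interval 94.1 to 99.0%) and in 339 of 368 without one (92.1%, 88.9 to 94.7%). In sham macrophage-like cells it was found in 41 of 44 (93.2%, 81.3 to 98.6%) and in 155 of 163 (95.1%, 90.6 to 97.9%). The share was higher with a Trem2 UMI in DOCA-salt and lower in sham cells, and the difference was not tested, since cells of a mouse are not replicates. All 63 DOCA-salt and all 47 sham nonclassical monocyte-like cells with a Treml4 UMI also had one of Tyrobp, as did 32 of 32 DOCA-salt and 31 of 32 sham cells without one.

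In neutrophil-like cells Trem3 was found in 17 of 48 DOCA-salt neutrophil-like cells with a Trem1 UMI (35.4%, interval 22.2 to 50.5%) and in 21 of 71 without one (29.6%, 19.3 to 41.6%), with overlapping intervals. In NK-like cells Hcst was found in 64.5% of DOCA-salt cells with a UMI of Klrk1, which encodes NKG2D, and in 61.9% of those without. The sham shares were 63.3% and 68.4%. In B-like cells with and without a Treml2 UMI, Tyrobp was found in 12.8% and 12.8% in DOCA-salt and in 15.03% and 15.98% in sham mice.

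Genes whose levels ran most like each member's were ranked by Pearson's r of log2(CPM + 1) over 53 profiles of a class in a mouse, among 7798 genes. The profiles share mice, libraries and depth, so r is a description. For Tyrobp the first 2 were Fcer1g (r = 0.98), the Fc receptor gamma chain and itself a transmembrane adaptor, and Myo1f (r = 0.97), a myosin of leukocytes, ahead of Ptpre, Apobr and Map7d1. For Trem2 they were Ctsc (r = 0.84), a lysosomal protease, Apoe (r = 0.82), the lipid carrier apolipoprotein E, and Msr1 and Espl1 (r = 0.80 each).

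Treml4 ran most like Ace (r = 0.92), the angiotensin-converting enzyme and here also a marker of nonclassical monocytes, followed by Cd300e, Gngt2, Ly6i and Tiam2. Trem3 ran most like Scnn1a (r = 0.95), a subunit of the epithelial sodium channel, followed by Msrb1, Bmx, Gsr and Fpr2, and Trem1 like Msrb1 (r = 0.87), Trem3 (r = 0.86), Taldo1, Bmx and Hp. Hcst ran most like Hsd11b1 (r = 0.84), an enzyme of glucocorticoid metabolism, and Zap70 (r = 0.83), a kinase of T and NK cell receptors, followed by Lime1, Jak1 and Usp3. Treml2 had the lowest values, with Mapk11 (r = 0.75), Fam169b, Ccr7, Slamf6 and Traf3ip2. By Spearman's rho, 9 of the 35 genes ranked among the first 5 of a member by r were again among its first 5.

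DOCA-salt was compared with sham within each class on UMIs summed per mouse, with edgeR's quasi-likelihood test over all genes of the class and Benjamini-Hochberg adjustment. Of 56 pairs of a member and a class, 20 had enough UMIs for that test. The share of all genes tested that passed an adjusted p of 0.05 was 0% in neutrophil-like and DC-like, 0.0775% in classical monocyte-like, 0.324% in macrophage-like, 0.908% in NK-like, 1.48% in B-like, 1.78% in nonclassical monocyte-like and 2.15% in T-like cells. None of the 20 pairs passed, and 2, Trem2 in macrophage-like and Tyrobp in T-like cells, had an unadjusted p under 0.05. DESeq2 also gave 0 calls and 2 such pairs. By edgeR, 399 of all 4623 genes in macrophage-like and 635 of all 5311 in T-like cells had an unadjusted p under 0.05. The median change over the 20 was 0.08 on the log2 scale, with 12 above 0. A further 34 pairs had too few UMIs and were compared on CPM by an exact two-sided permutation test, whose smallest possible p with 4 mice against 4 is 0.0286. The smallest p among them was 0.0571, and the last 2 pairs had no UMI.

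Trem2 was higher in macrophage-like cells of all DOCA-salt mice than in any sham mouse. It had 468, 282, 400 and 245 CPM in DOCA-salt mice 1 to 4, against 224, 173, 199 and 211 CPM in sham mice 1 to 4. The group means were 349 ± 103 CPM in DOCA-salt and 202 ± 21.6 CPM in sham mice (SD, n = 4 each). The groups did not overlap, and DOCA-salt mice spread more widely. The fitted log2 change was 0.78 (SE 0.21), with an unadjusted p of 0.00205 and an adjusted p of 0.160 by edgeR. In this class 2.99% of 4623 genes had all DOCA-salt mice above all sham mice. The gap in CPM gave the smallest p of an exact two-sided permutation test, 0.0286.

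The share of macrophage-like cells with a Trem2 UMI was 58.6% of 701 in DOCA-salt and 33.3% of 297 in sham mice (intervals 54.9 to 62.3% and 27.99 to 39.0%). After thinning to 1500 UMIs, which left out 114 DOCA-salt and 90 sham cells, the share per mouse was 36.8 ± 15.95% in DOCA-salt and 26.0 ± 3.98% in sham mice (SD, n = 4 each). The thinned shares of the mice overlapped (exact two-sided permutation p = 0.343, adjusted p = 0.794 over 22 shares). With thinning to 1000 UMIs they were 27.2 ± 6.08% in DOCA-salt and 16.1 ± 5.69% in sham mice (SD, n = 4 each), again with overlap. At that depth 3 DOCA-salt mice were above all sham mice (exact two-sided permutation p = 0.0571, adjusted p = 0.6 over 21 shares).

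Where in the macrophage-like class Trem2 lay was read from 6 subclusters, named by their leading genes. A subcluster led by Spp1, which encodes osteopontin, and Chil3 held 57.1% of the macrophage-like cells of DOCA-salt mouse 1, 8.47 to 13.8% in the other DOCA-salt mice and 0 to 8.11% in sham mice. Of its 241 cells, 180 came from DOCA-salt mouse 1. Trem2 there was 525, 380, 263 and 159 CPM in DOCA-salt mice 1 to 4, against 307, 296, 401 and 270 CPM in the subcluster led by Mmp13 and Serpinf1 in the same mice, so it was higher in 2 mice and lower in the other 2. The Spp1-led value of DOCA-salt mouse 3 came from 5 cells. Another subcluster was led by Ccl24, Lyve1 and Timd4, genes known from long-lived resident macrophages. Its Trem2 level was 658, 242, 175 and 381 CPM in DOCA-salt mice 1 to 4, from 10, 9, 5 and 8 cells. The Mmp13-led subcluster, the largest and with at least 10 cells in every mouse, had 318 ± 57.5 CPM in DOCA-salt and 230 ± 54.2 CPM in sham mice (SD, n = 4 each), with overlapping ranges of 270 to 401 and 170 to 288 CPM.

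Without the Spp1-led subcluster Trem2 had 340, 252, 430 and 267 CPM in DOCA-salt mice 1 to 4, against 242, 170, 199 and 199 CPM in sham mice 1 to 4. The groups still did not overlap, with 252 CPM as the lowest DOCA-salt value and 242 CPM as the highest sham value. The log2 change was 0.61 (adjusted p = 0.194 by edgeR). This comparison was added after the subclusters were seen.

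**Figure D2:**
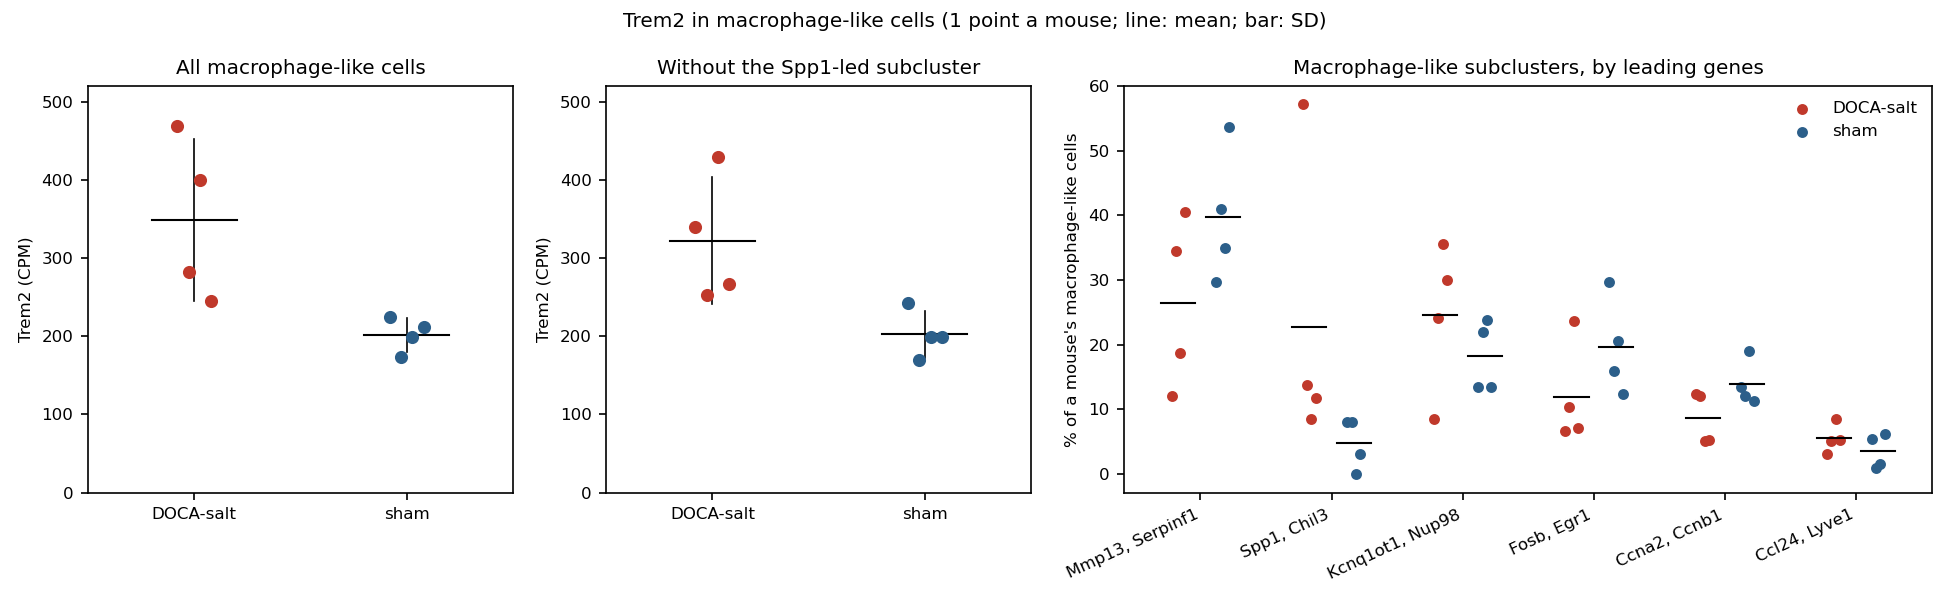
Trem2 in macrophage-like cells by mouse, in CPM, over all such cells (left) and without the Spp1-led subcluster (middle), with mean and SD, and the percentage of each mouse's macrophage-like cells in 6 subclusters with group means (right), DOCA-salt left of sham. DOCA-salt mice lie above sham mice in both level plots, and the Spp1-led subcluster holds 57.1% of the cells of 1 DOCA-salt mouse.

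Markers of other cells also differed between the groups within the macrophage-like class. The summed level of the 7 classical monocyte markers was 1529 to 2000 CPM in DOCA-salt and 766 to 1453 CPM in sham mice, with 7 and 6 of 7 detected and Chil3 at 0 in sham mice. The neutrophil list summed to 65.0 to 181 CPM in DOCA-salt mice, with Camp at 0, and to 31.0 to 58.5 CPM in sham mice, with Cxcr2, Retnlg and Camp at 0. The 3 erythroid markers summed to 1.71 to 13.1 CPM in DOCA-salt and 18.6 to 41.5 CPM in sham mice, where Alas2 was at 0. The 9 macrophage markers overlapped, at 20610 to 26289 and 22581 to 27544 CPM. The part of these in the Trem2 difference was not tested. Clustering choices also moved it: with the libraries clustered separately the change was 1.31 (adjusted p = 0.000312), and with members among the clustering genes 1.15 (adjusted p = 0.00269), both with a larger macrophage-like class.

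Tyrobp, the adaptor of Trem2, was compared in the same cells. It had 2701, 2525, 2275 and 2517 CPM in DOCA-salt mice 1 to 4, against 2806, 2348, 2615 and 2594 CPM in sham mice 1 to 4. The groups overlapped throughout. The log2 change was -0.069 (SE 0.12, adjusted p = 0.963 by edgeR). With the libraries clustered separately it turned to 0.43 (adjusted p = 0.0314), and with members among the clustering genes to 0.22.

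Hcst in macrophage-like cells had 42.8, 57.0, 177 and 57.2 CPM in DOCA-salt mice 1 to 4, against 24.9, 46.5, 41.0 and 55.9 CPM in sham mice 1 to 4. Only DOCA-salt mouse 3, with 59 macrophage-like cells, stood apart, and the other values overlapped. The log2 change was 0.53 (SE 0.42, adjusted p = 0.816 by edgeR).

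In the monocyte classes the receptors were compared with few cells. Treml4 had 684, 637, 541 and 701 CPM in DOCA-salt mice 1 to 4 in the nonclassical class, against 634, 546, 389 and 627 CPM in sham mice 1 to 4, with overlap (log2 change 0.20, SE 0.17, adjusted p = 0.696 by edgeR). Trem3 had 99.2, 198, 145 and 190 CPM there in DOCA-salt mice 1 to 4, against 125, 162, 130 and 95 CPM in sham mice 1 to 4, again with overlap (log2 change 0.30, SE 0.28, adjusted p = 0.745 by edgeR).  Trem2 in classical monocyte-like cells had 63.7, 72.0, 85.7 and 120 CPM in DOCA-salt mice 1 to 4, against 22.5, 66.4, 109 and 0 CPM in sham mice 1 to 4. The sham values rested on 5 UMIs in 15 cells, and the groups overlapped (exact two-sided permutation p = 0.229).

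Neutrophil-like cells were scarce in sham hearts, with 1 to 7 cells a mouse, and the values there are imprecise. Trem1 had 428, 479, 474 and 324 CPM in DOCA-salt mice 1 to 4, against 600, 679, 518 and 628 CPM in sham mice 1 to 4. All DOCA-salt mice were below all sham mice, but the sham values rested on 18 UMIs in all. The log2 change was -0.54 (SE 0.36, adjusted p = 0.965 by edgeR), and it turned to 0.048 with doublets kept and to 0.45 with no filter on low counts. In this class 2.29% of 349 genes had all DOCA-salt mice below all sham mice, and 15 had an unadjusted p under 0.05 by edgeR, with 0 past the adjusted threshold. The summed B cell markers in these cells reached 1349 CPM in a DOCA-salt and 4270 CPM in a sham mouse, and the macrophage markers 1251 and 2588 CPM. The neutrophil markers themselves summed to 100652 to 170834 CPM in DOCA-salt and 32529.5 to 174869 CPM in sham mice. The part of these in the result was not tested.

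Tyrobp in neutrophil-like cells had 7406, 8643, 8540 and 9091 CPM in DOCA-salt mice 1 to 4, against 9752, 9170, 6729 and 4898 CPM in sham mice 1 to 4. The sham mice lay on both sides of the DOCA-salt mice. Its log2 changes in neutrophil-like, classical monocyte-like, nonclassical monocyte-like, DC-like and NK-like cells were 0.15, 0.030, 0.11, -0.24 and -0.073, with adjusted p from 0.761 to 0.9999 by edgeR.

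Estimates in NK-like and B-like cells had an SE of 0.063 to 0.10, and those in T-like cells of 0.098 to 0.24. Hcst had 631, 712, 909 and 659 CPM in NK-like cells of DOCA-salt mice 1 to 4, against 725, 794, 741 and 765 CPM in sham mice 1 to 4 (log2 change -0.14, SE 0.094, adjusted p = 0.722 by edgeR). The sham values lay inside the DOCA-salt range. In T-like cells Hcst had 376, 435, 510 and 456 CPM in DOCA-salt mice 1 to 4, against 468, 345, 419 and 396 CPM in sham mice 1 to 4, with overlap and a fitted change of 0.17 (SE 0.098, adjusted p = 0.546).

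Treml2 overlapped between the groups in both lymphocyte classes. In B-like cells it had 85.3, 97.0, 107 and 103 CPM in DOCA-salt mice 1 to 4, against 101, 108, 104 and 123 CPM in sham mice 1 to 4, and the fitted change was -0.16 (SE 0.097, adjusted p = 0.535 by edgeR). In T-like cells the change was 0.089 (SE 0.24, adjusted p = 0.939). After thinning, 14.0 ± 1.996% of B-like cells had a Treml2 UMI in DOCA-salt and 13.9 ± 1.16% in sham mice (SD, n = 4 each).

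A cluster of 393 DOCA-salt and 282 sham cells led by Pgap1 and Aff3 had a median of 870 UMIs a cell in both groups. With that low depth and no B cell marker among its leading genes, it was left unnamed. Treml2 was also read there. It had 113, 121, 86.5 and 112 CPM in DOCA-salt mice 1 to 4, against 179, 128, 201 and 239 CPM in sham mice 1 to 4. All DOCA-salt mice were below all sham mice (exact two-sided permutation p = 0.0286), as for 2.9% of 1586 genes there. Trem2 went the other way in these cells, with 9.44, 16.2, 34.6 and 24.8 CPM in DOCA-salt mice 1 to 4, from 7 UMIs, against 0 CPM in every sham mouse (exact two-sided permutation p = 0.0286), and 3.59% of those genes had all DOCA-salt mice above all sham mice. Both cases were chosen after their values were seen.

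Tyrobp in T-like cells had 82.8, 43.1, 54.7 and 106 CPM in DOCA-salt mice 1 to 4, against 157, 102, 119 and 101 CPM in sham mice 1 to 4. DOCA-salt mouse 4 lay within the sham range and the other 3 lay below it. The log2 change was -0.63 (SE 0.22, unadjusted p = 0.00777, adjusted p = 0.161 by edgeR). With the libraries clustered separately it was 0.60 (adjusted p = 0.0709). The 9 macrophage markers in T-like cells moved the same way, at 180 to 430 CPM in DOCA-salt and 406 to 780 CPM in sham mice. The 3 erythroid markers summed to 0 to 0.912 CPM in DOCA-salt mice, with Hbb-bs and Alas2 at 0, and to 26.2 to 42723 CPM in sham mice, with 3 of 3 detected. The 8 neutrophil markers went the other way, at 18.8 to 34.5 CPM in DOCA-salt mice, with 6 detected and Il1r2 and Camp at 0, and 0 to 10.3 CPM in sham mice, with 2 detected. The part of these in the result was not tested.

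**Figure D3:**
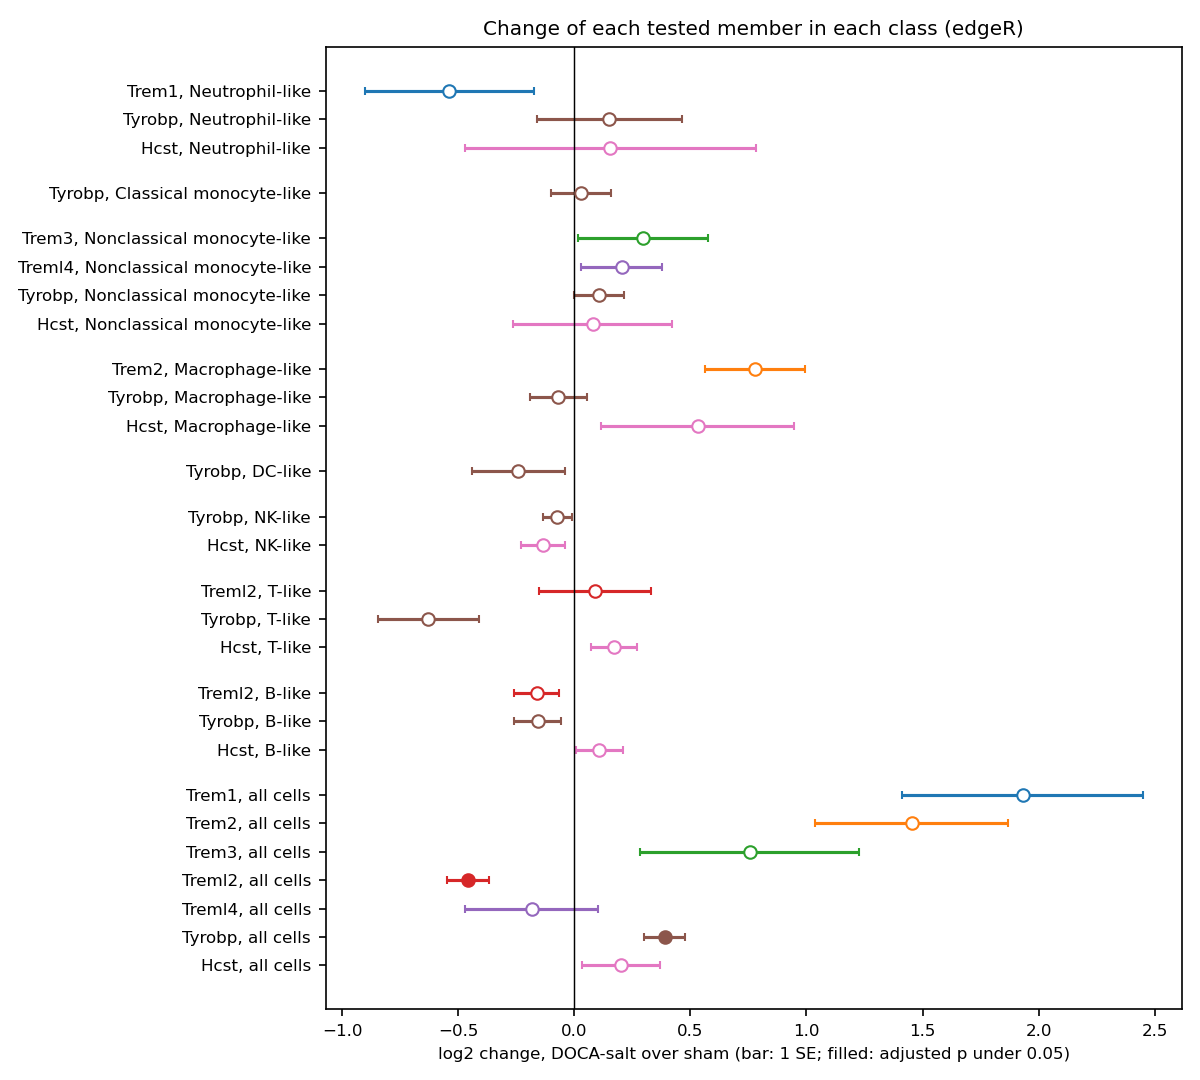
Fitted log2 change of DOCA-salt over sham for each member with enough UMIs in a class and for all cells together, with 1 SE (edgeR, 4 mice against 4). No member and class pair passes an adjusted p of 0.05 (open circles), and the filled circles are Treml2 at -0.46 and Tyrobp at 0.39 in all cells.

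Whether a member's change differed between macrophage-like cells and another class was tested on the difference of log2(CPM + 1) in each mouse, for 16 pairs with a mean of at least 20 CPM in both classes. The smallest exact two-sided permutation p values were 0.0571, for Tyrobp in T-like and Hcst in NK-like cells, both with an adjusted p of 0.457. Since the smallest possible p of this test is 0.0286, a single pair among 16 could not pass after adjustment. The lack of calls therefore does not decide whether a change was particular to a class.

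Summed over all cells of a mouse, 2 of the 7 members passed the threshold, 1 higher and 1 lower. Of 10778 genes 5.25% passed, 1.86% higher and 3.4% lower in DOCA-salt mice. Here the number of cells of a type and the level in each cell both enter and cannot be told apart from the sum alone. Tyrobp had 1464, 1478, 1348 and 1803 CPM in DOCA-salt mice 1 to 4, against 1094, 1112, 1121 and 1289 CPM in sham mice 1 to 4. All DOCA-salt mice were above all sham mice, and Tyrobp rose by 0.39 on the log2 scale (SE 0.087, adjusted p = 0.0299 by edgeR). The adjusted p was 0.0619 without DOCA-salt mouse 2, 0.0587 without DOCA-salt mouse 4, and 0.0959, 0.0937 and 0.0995 without sham mice 1, 2 and 3.

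Treml2 went the other way. It had 46.3, 53.5, 55.4 and 46.2 CPM over all cells in DOCA-salt mice 1 to 4, against 66.4, 72.8, 67.3 and 65.7 CPM in sham mice 1 to 4. No values overlapped, and Treml2 fell by 0.46 on the log2 scale (SE 0.091, adjusted p = 0.0173 by edgeR). The adjusted p was 0.0557 without DOCA-salt mouse 4 and 0.0654 without sham mouse 2.

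Trem1 and Trem2 had larger differences over all cells that did not pass. Trem1 had 4.42, 8.16, 17.4 and 5.61 CPM in DOCA-salt mice 1 to 4, against 3.48, 2.10, 1.12 and 1.48 CPM in sham mice 1 to 4 (fitted change 1.93, SE 0.52, adjusted p = 0.0611 by edgeR). Trem2 had 104, 36.2, 41.0 and 28.9 CPM in DOCA-salt mice 1 to 4, against 13.2, 18.4, 27.5 and 20.4 CPM in sham mice 1 to 4 (fitted change 1.45, SE 0.42, adjusted p = 0.0764 by edgeR). The groups overlapped for neither, and DOCA-salt mouse 1 stood far above the others for Trem2. Without that mouse the Trem2 change was 0.83 (adjusted p = 0.0427), and without DOCA-salt mouse 4 it was 1.67 (adjusted p = 0.0466). Without DOCA-salt mouse 1 Trem1 had an adjusted p of 0.0311. All DOCA-salt mice were above all sham mice for 5.81% of genes and below them for 6.91%. DESeq2 also called Trem1 (log2 change 2.04, adjusted p = 0.00365).

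The part of the shifts that the class makeup alone would give was computed by holding each class and unnamed cluster at 1 level over all mice and letting only its share of a mouse's UMIs vary. For Tyrobp the measured log2 ratio of group means was 0.40 and that from shares alone 0.42. For Treml2 the ratios were -0.43 and -0.32, and for Trem1 2.12 and 1.85. For Trem2 they were 1.40 and 0.45, so that less than the measured difference was given by the shares. The measured Trem2 means were 52.6 ± 34.8 CPM in DOCA-salt and 19.9 ± 5.92 CPM in sham mice (SD, n = 4 each). DOCA-salt mouse 1 had 104 CPM, and without it the fitted change over all cells was 0.83. From shares alone the means were 46.9 ± 19.2 and 34.4 ± 8.07 CPM. Shifts between subclusters within a class do not enter the shares, and their part was not tested. B-like cells, the leading named class for Treml2, made up 40.6 ± 2.70% of cells in DOCA-salt and 52.2 ± 3.39% in sham mice, and neutrophil-like cells 2.66 ± 1.65% and 0.361 ± 0.248% (SD, n = 4 each).

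**Figure D4:**
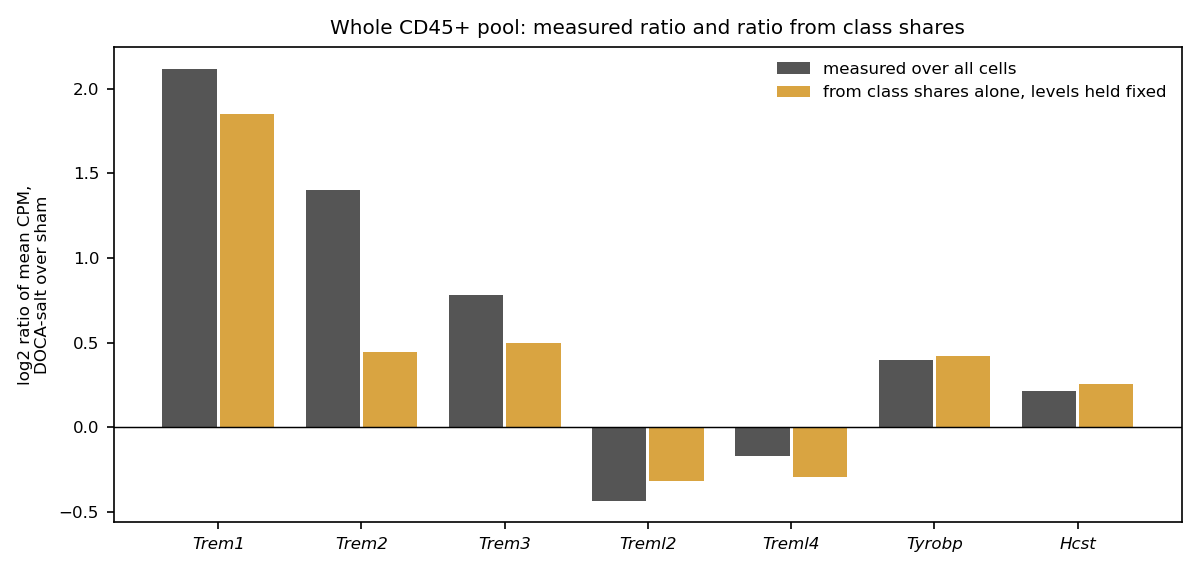
Log2 ratio of mean CPM over all cells, DOCA-salt over sham, for the 7 members, as measured (grey) and as given by class shares alone with the level of each class held fixed (yellow). For Tyrobp the bars are 0.40 and 0.42, and for Trem2 1.40 and 0.45. DOCA-salt mouse 1 had 104 CPM of Trem2, against 28.9 to 41.0 CPM in the other DOCA-salt mice.

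Genes around the receptors were read from 6 lists chosen by function. Of 23 genes of downstream signalling, 19 were measured in macrophage-like cells and 0 passed by edgeR in either direction. Of the 19, 1 had an unadjusted p under 0.05, as had 399 of all 4623 genes. The median log2 change of the 19 was -0.12, against 0.0086 for all 4623 genes. The largest changes were those of Card9, an adaptor of Syk signalling, at 0.55 (adjusted p = 0.716), and of Plcg2, a phospholipase, at 0.39 (adjusted p = 0.667). Of 16 partner receptors of the adaptors outside the family, 5 were measured there and 0 passed, with 2 at an unadjusted p under 0.05. The largest were Sirpb1a at 1.28 (adjusted p = 0.446), whose reads may be shared with the near-identical Sirpb1b and Sirpb1c, and Pilrb2 at -0.99 (adjusted p = 0.232).

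The other lists in macrophage-like cells were short. Of the 2 other transmembrane adaptors only Fcer1g was measured, at 0.0010 (SE 0.12, adjusted p = 0.9996). The sheddases that cleave Trem2 at the cell surface, Adam17 and Adam10, had log2 changes of 0.23 and -0.19 (adjusted p = 0.880 and 0.916). Of the other genes of the receptor locus, Treml6 was not among the features and Treml1 was below the filter.

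Of the 4 ligand genes, Apoe was called. In macrophage-like cells it averaged 17844 ± 3969 CPM in DOCA-salt and 10621 ± 988 CPM in sham mice (SD, n = 4 each), without overlap, and rose by 0.73 on the log2 scale (SE 0.15, adjusted p = 0.0459 by edgeR). The call was lost in 7 of 19 alternatives: the stricter cell filter and leaving out DOCA-salt mouse 3 or 4 or any 1 sham mouse, with adjusted p up to 0.167. Hmgb1, the other ligand gene measured, had a change of 0.22 (adjusted p = 0.776). Apoe also rose in nonclassical monocyte-like cells, to 3997 ± 1326 CPM in DOCA-salt against 2290 ± 293 CPM in sham mice (log2 change 0.77, adjusted p = 0.0188, with overlap, up to 0.0821 without DOCA-salt mouse 2 or 3 or sham mouse 3), and in B-like cells, to 407 ± 40.3 against 286 ± 28.6 CPM (log2 change 0.51, adjusted p = 0.00626, and 0.200 with equal cluster weights). B-like cells also held C1q UMIs, at 214 CPM in DOCA-salt and 227 CPM in sham mice, and the part of macrophage RNA in the Apoe result was not tested.

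In nonclassical monocyte-like cells Pglyrp1, which encodes a peptidoglycan-binding protein described as a Trem1 ligand, fell by 0.54 on the log2 scale (SE 0.14, adjusted p = 0.0363 by edgeR), with 930 ± 94.5 CPM in DOCA-salt and 1353 ± 161 CPM in sham mice (SD, n = 4 each). That call was lost in 9 of 17 alternatives, with adjusted p up to 0.335: DESeq2, no filter on low counts and leaving out any 1 mouse other than sham mouse 3. Of the signalling genes, 2 of 19 measured fell in B-like, 2 of 18 in NK-like and 1 of 13 in T-like cells and 0 rose, where 1.48%, 0.908% and 2.15% of all genes passed in either direction. Grb2, an adaptor of the Ras and DAP10 pathways, fell in B-like, NK-like and T-like cells, by 0.60, 0.64 and 0.74 on the log2 scale (adjusted p = 0.000289, 0.0298 and 0.0190 by edgeR). It had 145 ± 2.74 CPM in DOCA-salt and 220 ± 4.49 CPM in sham B-like cells (SD, n = 4 each), and this call held in all 19 alternatives. The NK-like call was lost in 8 of 19, with adjusted p up to 0.228 (DESeq2, a hashtag margin of 5, or without DOCA-salt mouse 1, 3 or 4 or sham mouse 2, 3 or 4). The T-like call was lost in 4 of 18, with adjusted p up to 0.0717 (the stricter cell filter, or without DOCA-salt mouse 4 or sham mouse 2 or 3). Fyn, a Src-family kinase, fell in NK-like cells by 0.57 (adjusted p = 0.00592, and 0.0597 without sham mouse 4). Inpp5d, the lipid phosphatase SHIP1, fell in B-like cells by 0.44 (adjusted p = 0.0290), a call lost in 8 of 19 alternatives, 6 of them without DOCA-salt mouse 2, 3 or 4 or sham mouse 1, 2 or 4, with adjusted p up to 0.292.

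Over all cells, 1 of 23 signalling genes rose and 4 fell, with a median log2 change of -0.036, against 0.0095 for all genes tested, of which 1.86% were called higher and 3.4% lower. Grb2 fell by 0.73, Blnk, a B cell adaptor, by 0.52, Syk by 0.47 and Inpp5d by 0.38 (adjusted p = 0.000979, 0.0235, 0.0112 and 0.0405 by edgeR). The gene that rose was Lcp2, the adaptor SLP-76, at 0.34 (adjusted p = 0.0392), named after its value was seen. Of 14 partner receptors measured, 3 rose and 0 fell: Sirpb1b by 1.14, Sirpb1c by 1.10 and Cd300lb by 0.9995 (adjusted p = 0.0117, 0.0449 and 0.0168). Fcer1g had 1364 ± 191 CPM in DOCA-salt and 1045 ± 96.1 CPM in sham mice (SD, n = 4 each), with a log2 change of 0.37 (adjusted p = 0.0575). As for Tyrobp, such sums follow the makeup of the cells as well as their levels.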

How the data were processed

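The deposited matrices hold raw UMI counts per feature and barcode, which the authors made with Cell Ranger (software version 3.1.0 per the file headers); Seurat 4 and mm10 stand in the submitters' processing notes. The setting for strand was not given in the sources used here. Barcodes needed at least 200 genes and no more than 10% mitochondrial UMIs, Scrublet calls were removed (243 DOCA-salt, 53 sham), and a cell went to a mouse when its top hashtag was at least 2 times the second, which 321 DOCA-salt and 136 sham cells failed. Cells were clustered together (scanpy 1.11.5, leidenalg 0.10.2, 2000 variable genes, 30 components, resolution 1.0, no batch correction), and a cluster was named from at least 3 markers. Clusters with mixed markers stayed unnamed, as did clusters of low depth with none of their own markers among their leading genes. The 4 hashtag counts gave the mouse.

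UMIs were summed per mouse and class, filtered (filterByExpr), scaled by TMM and tested with edgeR 4.0.16 in R 4.3.3, with DESeq2 1.42.0 as an alternative. On simulated data, edgeR recovered 66% of genes changed 2-fold and 85% of those changed 4-fold in macrophage-like cells (4623 genes, 13 false calls), and 32% and 68% in neutrophil-like cells (349 genes). In each class 200 genes were changed, while 0.324% of macrophage-like and 0% of neutrophil-like genes were called in the data. The adjustment is milder when more genes change, so these rates may overstate recovery in the data, above all in neutrophil-like cells. Shares were compared after thinning to 1500 UMIs a cell, with 1000 as an alternative. Named genes are the 7 members, up to 5 genes most like each (1 is not reported here), list members past the threshold (up to 4 per list and class) and otherwise, in macrophage-like cells, the 2 with the largest change. Members and lists were chosen with earlier results of these data known. Each library's mice are told apart by hashtag only, and the labels call them biological replicates.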

Additional observations from a re-analysis of the deposited data

Results flagged for a closer look

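Among 40 groups of 4 mice, 3 held a mouse whose gap to its nearest neighbour was a larger part of the group's range than Dixon's 95% critical value, which chance exceeds in about 1 in 20 groups. Trem2 summed over all cells was 104 CPM in DOCA-salt mouse 1, against 28.9 to 41.0 CPM in the other DOCA-salt mice. In that mouse the Spp1-led subcluster took up 57.1% of macrophage-like cells, and the part of these cells in the value was not tested. Hcst in macrophage-like cells was 177 CPM in DOCA-salt mouse 3, against 42.8 to 57.2 CPM in the other DOCA-salt mice, from 34 UMIs. Tyrobp summed over all cells was 1289 CPM in sham mouse 4, against 1094 to 1121 CPM in the other sham mice.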

How the results depend on the processing

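No paired analysis was possible because hashtag numbers name mice only inside their own pool, and nothing in the labels ties a DOCA-salt mouse to a sham mouse. The Trem2 change in macrophage-like cells, 0.78 (adjusted p = 0.160), stayed above 0 in all 20 alternatives. The Trem2 change passed the threshold with the libraries clustered separately (1.31), with members among the variable genes (1.15) and with no filter on low counts (0.84, adjusted p = 0.00719). The first 2 by construction changed the class, to 714 DOCA-salt and 471 sham or 817 and 455 macrophage-like cells, against 701 and 297. Leaving out 1 mouse gave 0.56 to 0.91, with adjusted p from 0.0884 to 0.451. The number of member and class pairs past the threshold, all cells included, was 2 of 27, 3 with DESeq2, 4 with the libraries clustered separately, 6 of 61 with no filter on low counts, and 0 to 4 with 1 mouse left out, 0 being without sham mouse 2. Thinned shares and differences between classes gave 0 calls throughout. A single pair at the smallest possible p of these exact tests could not pass after adjustment, so these 0 calls decide little.

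Of 458 single values under alternatives, 419 kept their direction and side of the threshold and 23 reversed. Not all of the 458 are separate checks. Some alternatives left a class unchanged, and sums over all cells do not depend on the clustering. With the libraries clustered separately Tyrobp was 0.43 in macrophage-like cells (adjusted p = 0.0314) and 0.60 in T-like cells, and Treml2 -0.14 in T-like cells. With members among the variable genes Tyrobp was 0.22 in macrophage-like cells. With doublets kept Trem1 was 0.048 and Hcst -0.49 in neutrophil-like cells and Hcst -0.033 in T-like cells, and with no filter Trem1 was 0.45 in neutrophil-like and Tyrobp 0.052 in DC-like cells. With a hashtag margin of 5 Hcst was -0.28 in nonclassical monocyte-like and -0.028 in T-like cells. In T-like cells it was -0.023 at resolution 2.0 and -0.037 under the stricter cell filter, and -0.061 in B-like cells with equal cluster weights. Leaving out 1 mouse gave -0.15 to 0.36 for Hcst in nonclassical monocyte-like cells (reversed without DOCA-salt mouse 2 or sham mouse 1 or 3), -0.28 to 1.25 for Hcst in neutrophil-like cells (sham mouse 3 or 4), -0.021 to 0.24 for Tyrobp in classical monocyte-like cells (sham mouse 4), -0.045 to 0.29 for Treml2 in T-like cells (DOCA-salt mouse 3 or sham mouse 4) and -0.45 to 0.032 for Treml4 in all cells (sham mouse 1). The causes were not tested. Resolution 0.5 and separate clustering gave no monocyte classes, and a hashtag margin of 5 or a minimum of 10 cells a mouse left no neutrophil-like or classical monocyte-like test. The leading class of each member was otherwise the same. Few cells limit the neutrophil-like and classical monocyte-like comparisons, with 15 sham cells each, and the DC-like one, with 31.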

Other observations

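Clusters left unnamed because their markers were mixed also held members. In a cluster led by Cxcr6 and Trgv2, Hcst averaged 625 ± 85.1 CPM in DOCA-salt and 790 ± 146 CPM in sham mice (SD, n = 4 each), with overlap. In a cluster of 10 cells led by Cyp11a1 and Gata2, all 4 DOCA-salt and all 6 sham cells had a Tyrobp UMI.

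Macrophage-like cells were also split within each mouse at the median of a surface antibody count. Trem2 averaged 282 ± 110 CPM in the upper and 267 ± 106 CPM in the lower part for CD64 (SD, n = 8), and was higher in the upper part in 6 of 8 mice. For CD11c it averaged 262 ± 115 CPM in the upper and 293 ± 110 CPM in the lower part, and was higher in the upper part in 2 of 8 mice. For CD39, Tyrobp averaged 2651 ± 131 CPM in the upper and 2421 ± 270 CPM in the lower part, higher in 7 of 8 mice. These 2 of 8 and 7 of 8 were the extremes. The splits not named, which also took in CD11b, CD80, Galectin3 and CD44, had 3 to 6 of 8 mice higher in the upper part. For CD64, Trem2 averaged 365 CPM in the upper and 328 CPM in the lower part in DOCA-salt mice, and 199 and 206 CPM in sham mice. The upper parts were deeper in each case, with median UMIs of 3874 against 2265 for CD64.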
